A study of Homo sapiens with 6 samples.

Results

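The genes described here are 48 genes of the NRF2, glutathione and thioredoxin systems, which defend cells against oxidants and reactive chemicals. They were chosen by gene symbol from the 65746 genes of the deposited count table and fall into 6 roles, namely regulators, glutathione, thioredoxin, catalase and superoxide dismutase, NADPH supply, and detoxification. The RNA came from SU-DHL-8, an established human line of diffuse large B-cell lymphoma, labelled as wild type and as 1 cell line throughout. Cells received 15 µM beta-sitosterol, a plant sterol close to cholesterol, for 24 h, or DMSO, the solvent, at a matching concentration for the same time. There were 3 libraries per group, 6 in all, from what the labels call replicate experiments. Nothing further is said about how separate the cultures were, so p-values measure only the spread between these libraries, in 1 line at 1 dose and 1 time.

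NRF2, the product of NFE2L2, is a transcription factor that KEAP1 holds in the cytoplasm and hands to the proteasome. Oxidants and electrophiles modify KEAP1, NRF2 then builds up without needing more of its own mRNA, pairs with a small MAF protein and binds antioxidant response elements in DNA, sites that BACH1 can occupy as a repressor. Its targets make glutathione, reduce thioredoxin, supply NADPH and conjugate or export foreign compounds. Glutathione and thioredoxin both carry electrons from NADPH to peroxidases and to oxidised proteins.

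Levels are given as CPM, counts divided by the library total after scaling with the TMM factors of edgeR, so a level or a difference is relative to the rest of the RNA in that library. Library totals were 26453101 to 29359951 counts with beta-sitosterol and 31314104 to 35565163 with DMSO. Among B-cell markers, CD79A averaged 767 ± 31.2 CPM with beta-sitosterol and 371 ± 48.2 CPM with DMSO, and PAX5 averaged 207 ± 9.35 CPM with beta-sitosterol and 659 ± 43.5 CPM with DMSO (SD, n = 3 each). CD79A was higher by 1.05 and MS4A1 by 2.23 log2 units, and PAX5 was lower at -1.67 (edgeR adjusted p = 0.000535, 0.000111 and 8.1e-05), while CD79B and CD22 were not called. Of 4 T-cell markers, 3 were at 0 in all 6 libraries, and the sum of the 4 reached at most 0.0627 CPM. The summed myeloid markers held 6.34 to 8.40 CPM with beta-sitosterol and 4.61 to 7.04 CPM with DMSO. Most of this was LYZ, which averaged 5.83 CPM with beta-sitosterol and 5.19 CPM with DMSO. The summed fibroblast markers held 0.492 to 1.13 CPM with beta-sitosterol and 0.0289 to 0.125 CPM with DMSO. With beta-sitosterol these were mostly COL1A1, which averaged 0.658 CPM there and 0 CPM with DMSO. DCN was at 0 in all 6 libraries. Whether such cells were present, or had a part in the results, was not tested. In bulk RNA, a gene carried by fewer cells and a gene with less RNA per cell cannot be told apart. The DMSO libraries were less alike than the treated ones. The median SD between replicates over the 43 members tested was 0.07 log2 units with beta-sitosterol and 0.25 with DMSO, and DMSO replicate 2 held the lowest DMSO value for 27 of the 43, against 41.3% of all genes tested. Its part in the results was not tested beyond leaving it out.

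After beta-sitosterol, 24 members were higher, 3 were lower and 16 did not pass the test, out of 43 with enough counts to test (edgeR quasi-likelihood test, adjusted p under 0.05 over all 11525 genes tested). The treatment moved much of the transcriptome, 40.8% of all genes tested being called, 19% higher and 21.8% lower, while of the members 55.8% were called higher and 6.98% lower. The members were chosen with earlier results of these data known, so these shares describe the list and are no test of it. Glutathione genes were higher in 7 of 10 tested, thioredoxin genes in 7 of 11, detoxification genes in 6 of 8 and catalase and superoxide dismutase in 2 of 3. Genes grouped under NADPH supply were higher in 1 of 4, namely TALDO1, and regulators in 1 of 7. The lower members were 2 regulators, NFE2L1 and MAFK, and the export pump gene ABCC1. The median log2 fold change was 0.49 over the tested members and -0.04 over all genes tested. The treated values lay wholly above the DMSO values for 25 members and wholly below for 3, while over all genes tested the groups did not overlap in 56.1%, 27% higher and 29.1% lower.

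**Figure D1:**
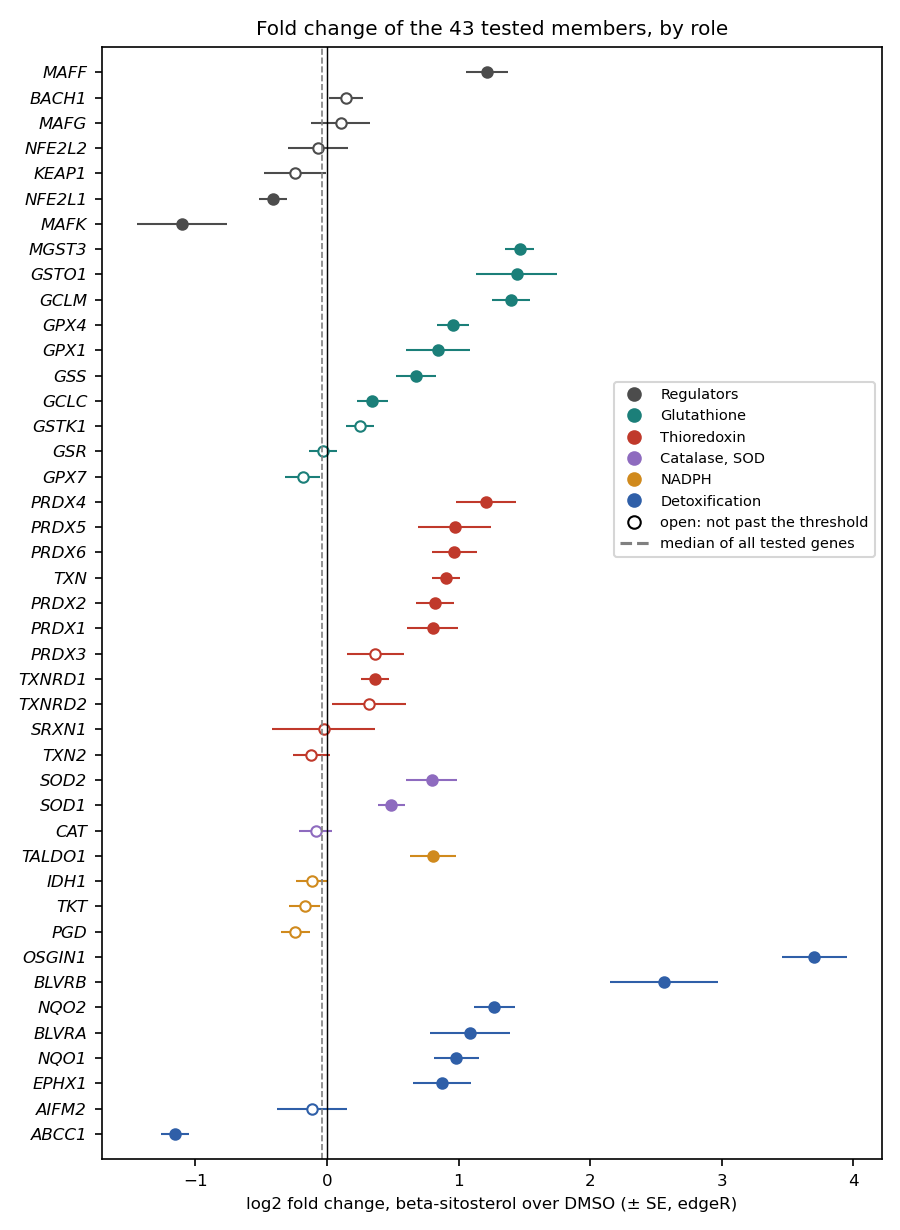
The log2 fold change of each tested member, beta-sitosterol over DMSO, with its SE, ordered within its role; filled points passed the test and the dashed line marks the median of all genes tested. Glutathione, thioredoxin and detoxification genes sit mostly to the right of 0, up to 3.70 for OSGIN1, with ABCC1 at -1.16 the exception among called ones, while NADPH genes and regulators lie on both sides, down to -1.10 for MAFK.

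How many members were called depended on the scale. The authors' deposited TPM table divides by gene length and by a library constant. Its rows reached 57.8%, 57.0% and 57.6% of the sum that complete TPM would have in the beta-sitosterol libraries, against 64.6%, 39.5% and 69.2% in the DMSO libraries. Tested with limma on log2(TPM + 1), 7 of the 24 members called higher and 1 of the 3 called lower were called again, namely MAFF, GCLM, MGST3, NQO2, OSGIN1, BLVRB and EPHX1 above and ABCC1 below. On that scale the median of all genes lay at -0.19 and that of the members at 0.23, and 713 genes were higher and 2226 lower. With each library's listed TPM brought to the same sum, an alternative added after the data were seen, 16 members were higher and 8 lower, where over all genes 1360 were higher and 4053 lower. Of the 24 higher calls, MAFF, GCLM, MGST3, NQO2, OSGIN1 and BLVRB held under all 18 alternatives tried, as did ABCC1 among the 3 lower ones.

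**Figure D2:**
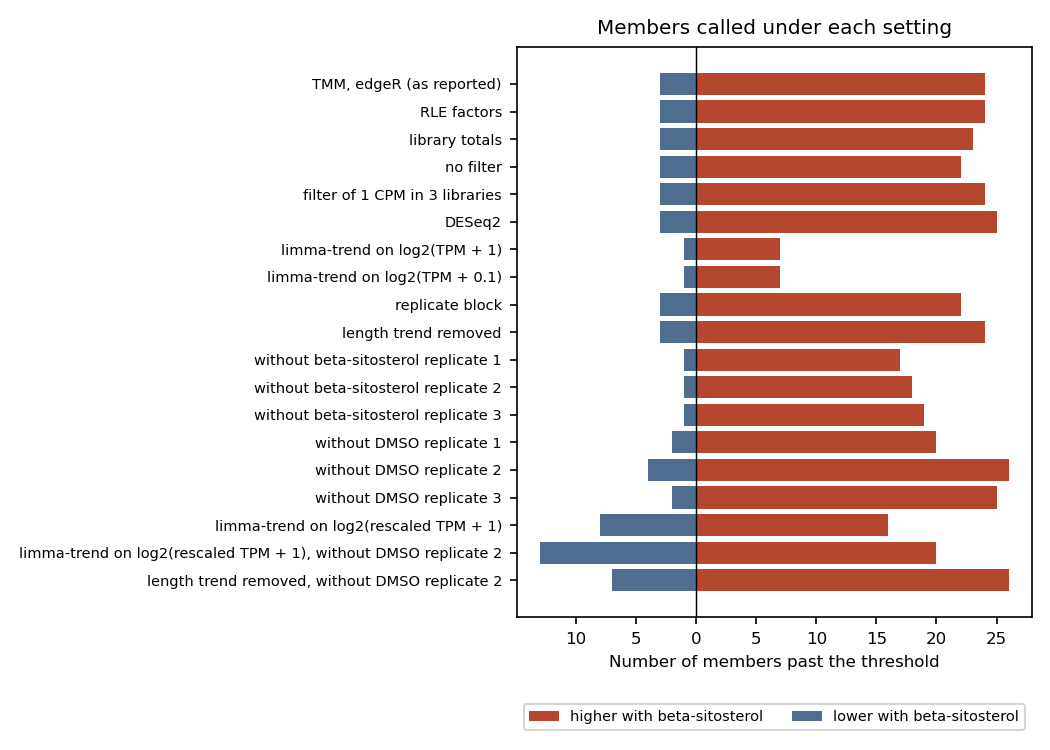
The number of members called higher (right of 0) and lower (left of 0) with beta-sitosterol, as reported and under each of 18 alternative settings. Count-based settings with all libraries give 22 to 25 higher calls, and both TPM settings without rescaling give 7.

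Among the regulators, the mRNA of NRF2 itself and of its partner in control, KEAP1, did not pass the test, and the small MAF genes went different ways. NFE2L2 (ENSG00000116044, GENCODE v29 on GRCh38, chromosome 2, 177227595 to 177392697, minus strand) had 68.3, 77.0 and 72.5 CPM with beta-sitosterol, against 65.7, 107 and 55.3 CPM with DMSO. The treated values lay inside the DMSO range, and the log2 fold change was -0.07 ± 0.23 (SE; edgeR adjusted p = 0.834). DMSO replicate 2 was the high one, and without it the log2 fold change was 0.26 (edgeR adjusted p = 0.0459). KEAP1 (ENSG00000079999, chromosome 19, 10486120 to 10503741, minus strand) had 116, 108 and 119 CPM with beta-sitosterol, against 137, 87.3 and 183 CPM with DMSO. These also overlapped, at -0.25 ± 0.23 log2 units (edgeR adjusted p = 0.43), and here DMSO replicate 2 was the low one. Without that library, KEAP1 was called lower at -0.48 (edgeR adjusted p = 0.00171). The repressor gene BACH1 had 23.4, 23.9 and 24.4 CPM with beta-sitosterol, against 23.9, 19.97 and 21.0 CPM with DMSO, and its groups overlapped, the difference being 0.14 ± 0.13 log2 units (edgeR adjusted p = 0.387).

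MAFF (ENSG00000185022, chromosome 22, 38200767 to 38216511, plus strand), a small MAF partner of NRF2 and BACH proteins, had 10.5, 10.4 and 9.45 CPM with beta-sitosterol, against 4.31, 3.86 and 4.90 CPM with DMSO. It was 2.32-fold higher, a log2 difference of 1.21 ± 0.16 (edgeR adjusted p = 0.00079), with every treated library above every DMSO library. Its paralogue MAFK had 84.1, 73.7 and 80.0 CPM with beta-sitosterol, against 181, 80.1 and 249.3 CPM with DMSO. DMSO replicate 2 thus lay among the treated values, and the fall of 1.10 log2 units (SE 0.34; edgeR adjusted p = 0.0318) was lost when any library other than DMSO replicate 2 was left out. Without that replicate, MAFK fell by 1.44 log2 units (edgeR adjusted p = 1.22e-07), while without DMSO replicate 3 the difference was -0.67 (edgeR adjusted p = 0.104). The third small MAF gene, MAFG, averaged 82.8 ± 1.03 CPM with beta-sitosterol and 77.1 ± 25.2 CPM with DMSO (SD, n = 3 each) and was not called. NFE2L1, a relative of NRF2 best known for inducing proteasome genes, had 133, 137 and 144 CPM with beta-sitosterol, against 175, 189.7 and 187 CPM with DMSO. The groups did not overlap, and it fell by 0.41 log2 units (SE 0.11; edgeR adjusted p = 0.0149), a call lost when any treated library was left out or a length trend was removed. On log2(TPM + 1), MAFF was the sole regulator called, at 0.59 (limma adjusted p = 0.0303).

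The antioxidant response element has a core written here as TGACNNNGC, and RefSeq promoter windows on GRCh38.p14, from 250 bases before to 50 after an annotated start, were available for 39 of the 48 members, 57 windows in all since 12 members have several. On either strand the core was present in 13.3% of all 35116 windows, in 14.6% of those of tested genes, in 22.8% of the members' windows and in 20% of those of members called higher. Tested members that were not called held it in 19.0% of their windows, 4 of 21, against 6 of 30 in members called higher. The AP-1 motif TGANTCA, bound by JUN and FOS proteins, was present in 7.71% of all windows and 5.13% of those of tested genes. Among the members it was present in 8.77% of windows, 5 of 57. The share was 3.33% in members called higher, 1 of 30 windows, and 9.52% in tested members not called, 2 of 21. These counts are too small to compare. The 2 motifs can share bases, and did so in AIFM2, GSTP1 and ME1. Sequences are shown for 5 higher members with a core, for KEAP1 as a member not called, and for OSGIN1, whose window held the AP-1 motif and no core. Further core matches in windows of KEAP1, GSTO1 and TXNRD1 are not marked, that of KEAP1 lying at -54 to -46. Capitals mark the motif, read as its reverse complement where it lies on the other strand, and each line runs 5′ to 3′ on the gene's own strand, motif positions being counted from the start, which is 1.
GCLM, chr1:93909436-93909484, minus strand, motif at -34 to -26: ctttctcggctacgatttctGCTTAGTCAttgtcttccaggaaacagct
TXNRD1, chr12:104286910-104286958, plus strand, motif at -102 to -94: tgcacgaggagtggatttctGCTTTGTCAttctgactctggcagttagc
GSTO1, chr10:104254646-104254694, plus strand, motif at -226 to -218: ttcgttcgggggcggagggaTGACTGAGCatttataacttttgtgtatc
MAFF, chr22:38201852-38201900, plus strand, motif at -122 to -114: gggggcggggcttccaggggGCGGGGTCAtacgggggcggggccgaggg
EPHX1, chr1:225825256-225825304, plus strand, motif at -78 to -70: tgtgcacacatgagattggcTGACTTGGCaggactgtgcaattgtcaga
KEAP1, chr19:10502774-10502822, minus strand, motif at -31 to -23: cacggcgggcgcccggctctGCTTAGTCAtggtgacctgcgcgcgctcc
OSGIN1, chr16:83953123-83953169, plus strand, motif at -97 to -91: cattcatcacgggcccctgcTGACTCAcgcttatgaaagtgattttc
GCLM and KEAP1 carry the same 9 letters in these windows, although GCLM was called higher and KEAP1 was not called. A match describes the letters only and says nothing of binding.

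Of the 10 tested genes of glutathione synthesis and use, 7 rose and 0 fell after beta-sitosterol, and their median log2 fold change was 0.76. The summed level of the tested and untested glutathione members was 949, 972 and 969 CPM with beta-sitosterol, against 611, 558 and 651 CPM with DMSO. The first step of synthesis is made by a ligase with a catalytic subunit, GCLC, and a modifier subunit, GCLM. GCLM (ENSG00000023909, chromosome 1, 93885205 to 93909456, minus strand) had 51.4, 45.5 and 38.6 CPM with beta-sitosterol, against 17.3, 18.2 and 15.8 CPM with DMSO. That is 2.64-fold higher, or 1.40 ± 0.15 log2 units (edgeR adjusted p = 0.000314), and the groups lay far apart. GCLC rose less, averaging 98.4 ± 5.29 CPM with beta-sitosterol and 77.5 ± 6.26 CPM with DMSO (SD, n = 3 each), a log2 difference of 0.34 ± 0.12 (edgeR adjusted p = 0.0455). The call was lost when any treated library or DMSO replicate 1 was left out, and with library totals in place of TMM factors. It was also lost with no filter on low counts, with replicate number as a block and on the TPM scale. GSS, glutathione synthetase, which performs the step after the ligase, had 68.2, 75.6 and 77.0 CPM with beta-sitosterol, against 46.2, 37.8 and 54.1 CPM with DMSO. All treated values were above all DMSO values, by 0.68 ± 0.15 log2 units (edgeR adjusted p = 0.00791). GSR, the reductase that regenerates glutathione with NADPH, averaged 107 ± 2.84 CPM with beta-sitosterol and 109 ± 3.35 CPM with DMSO (SD, n = 3 each) and was not called (edgeR adjusted p = 0.844).

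The glutathione peroxidase genes GPX1 and GPX4 were higher, and GPX7 was not called. GPX4, which reduces lipid hydroperoxides in membranes and restrains ferroptosis, had 238, 241 and 245 CPM with beta-sitosterol, against 110.0, 123 and 139 CPM with DMSO. It was 1.94-fold higher, at 0.96 ± 0.12 log2 units (edgeR adjusted p = 0.000654). GPX1, the cytosolic selenium peroxidase, had 125, 121 and 125 CPM with beta-sitosterol, against 76.3, 42.2 and 88.5 CPM with DMSO. The treated libraries were nearly equal and the DMSO libraries spread widely, for a difference of 0.84 ± 0.24 log2 units (edgeR adjusted p = 0.0232), which was lost without any treated library and without DMSO replicate 1. GPX7, an endoplasmic reticulum peroxidase, averaged 28.96 ± 2.74 CPM with beta-sitosterol and 32.9 ± 3.14 CPM with DMSO (SD, n = 3 each; edgeR adjusted p = 0.3). With a length trend removed from each library it was called lower, at -0.50 log2 units against -0.19 as tested here (edgeR adjusted p = 0.0144), and likewise on rescaled TPM.

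Of the transferases, MGST3 and GSTO1 were higher. MGST3 (ENSG00000143198, chromosome 1, 165630861 to 165661796, plus strand), a microsomal transferase with peroxidase activity, had 72.5, 76.9 and 76.8 CPM with beta-sitosterol, against 27.0, 27.1 and 27.8 CPM with DMSO. Both groups were tight and lay 2.76-fold apart, or 1.46 ± 0.11 log2 units (edgeR adjusted p = 0.000106). GSTO1 (ENSG00000148834, chromosome 10, 104235356 to 104267459, plus strand), which reduces mixed disulphides with glutathione, had 78.0, 86.3 and 83.1 CPM with beta-sitosterol, against 38.2, 15.3 and 37.6 CPM with DMSO. DMSO replicate 2 was the lowest, and the groups did not overlap at 1.44 ± 0.31 log2 units (edgeR adjusted p = 0.00631). GSTK1, a mitochondrial and peroxisomal transferase, averaged 87.6 ± 3.78 CPM with beta-sitosterol and 73.4 ± 1.37 CPM with DMSO (SD, n = 3 each), its groups not overlapping but the test not passed (edgeR adjusted p = 0.0893); it was called higher with DESeq2 and without DMSO replicate 2 or 3. On log2(TPM + 1), GCLM and MGST3 were the glutathione members called.

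Thioredoxin and the peroxiredoxins, peroxidases that thioredoxin reduces, were among the most abundant members and mostly higher. Per unit of gene length, on the authors' TPM scale, PRDX1 and TXN led with mean levels of 524 and 453 TPM with beta-sitosterol and 382 and 295 TPM with DMSO. PRDX6, PRDX5 and SOD1 came next at 388, 351 and 298 TPM with beta-sitosterol and 251, 232 and 261 TPM with DMSO. On that scale the spread between DMSO libraries was wide, PRDX1 for instance holding 501, 186 and 459 TPM there, against 521, 530 and 522 TPM with beta-sitosterol. The listed TPM of DMSO replicate 2 reached only 39.5% of a complete sum, against 64.6% and 69.2% in DMSO replicates 1 and 3. Its TPM values and the DMSO means above carry that shortfall. In CPM, PRDX1 had 449, 261 and 413 with DMSO. On CPM, 7 of 11 thioredoxin members were higher and 0 lower, with a median log2 fold change of 0.80, and none was called on log2(TPM + 1). The 6 peroxiredoxins together held 1728, 1792 and 1791 CPM with beta-sitosterol, against 1161, 699 and 1166 CPM with DMSO, so the DMSO libraries were all lower and replicate 2 lowest.

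TXN (ENSG00000136810, chromosome 9, 110243811 to 110256640, minus strand), the cytosolic thioredoxin, had 226, 253 and 243 CPM with beta-sitosterol, against 126, 128 and 130.5 CPM with DMSO. It was 1.87-fold higher, at 0.91 ± 0.11 log2 units (edgeR adjusted p = 0.000486), and DMSO replicate 2 was not apart here. Its count is less certain than most since 7 pseudogenes carry its name in the annotation. TXNRD1, the selenium reductase that recharges thioredoxin, averaged 376 ± 10.2 CPM with beta-sitosterol and 292 ± 21.7 CPM with DMSO (SD, n = 3 each), a rise of 0.36 ± 0.11 log2 units (edgeR adjusted p = 0.0257). The call was lost without any treated library, with no filter, with replicate number as a block and on the TPM scale. The mitochondrial pair was not called. TXN2 averaged 103 ± 2.83 CPM with beta-sitosterol and 112 ± 19.1 CPM with DMSO, and TXNRD2 averaged 89.7 ± 6.44 CPM with beta-sitosterol and 72.0 ± 30.0 CPM with DMSO (SD, n = 3 each).

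PRDX4 (ENSG00000123131, chromosome X, 23664262 to 23686399, plus strand), the peroxiredoxin of the endoplasmic reticulum, had the largest fold of its family, with 157, 168 and 167 CPM with beta-sitosterol, against 79.1, 45.2 and 88.9 CPM with DMSO. The difference was 2.31-fold, or 1.21 ± 0.23 log2 units (edgeR adjusted p = 0.00393). PRDX6, which reduces phospholipid peroxides and uses glutathione, had 333, 346 and 354 CPM with beta-sitosterol, against 195, 131 and 202 CPM with DMSO. PRDX5, found in mitochondria, peroxisomes and cytosol, had 168, 179.8 and 186 CPM with beta-sitosterol, against 98.1, 50.9 and 124 CPM with DMSO. Both differed by 0.97 log2 units, PRDX6 with an SE of 0.17 (edgeR adjusted p = 0.00271) and PRDX5 with one of 0.28 (edgeR adjusted p = 0.023). The wider error of PRDX5 went with a call that was lost without any treated library and without DMSO replicate 1.

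The cytosolic peroxiredoxins moved by similar amounts. PRDX1 had 638, 661 and 659 CPM with beta-sitosterol, against 449, 261 and 413 CPM with DMSO, a difference of 0.80 ± 0.19 log2 units (edgeR adjusted p = 0.0106). PRDX2, abundant in blood cells, had 177, 181 and 187 CPM with beta-sitosterol, against 99.5, 86.7 and 123 CPM with DMSO, a difference of 0.82 ± 0.14 log2 units (edgeR adjusted p = 0.00282). In both genes the groups did not overlap and DMSO replicate 2 was lowest. PRDX3, the mitochondrial one, averaged 249.2 ± 10.6 CPM with beta-sitosterol and 193 ± 60.6 CPM with DMSO (SD, n = 3 each), overlapped and was not called (edgeR adjusted p = 0.211). SRXN1, sulfiredoxin, which rescues over-oxidised peroxiredoxins and is a well-known NRF2 target, had 5.36, 5.18 and 5.997 CPM with beta-sitosterol, against 5.49, 2.38 and 8.94 CPM with DMSO. The DMSO libraries alone lay on both sides of the treated ones, and the difference was -0.03 ± 0.39 log2 units (edgeR adjusted p = 0.963); its libraries are shown by a choice made after the values were seen.

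**Figure D3:**
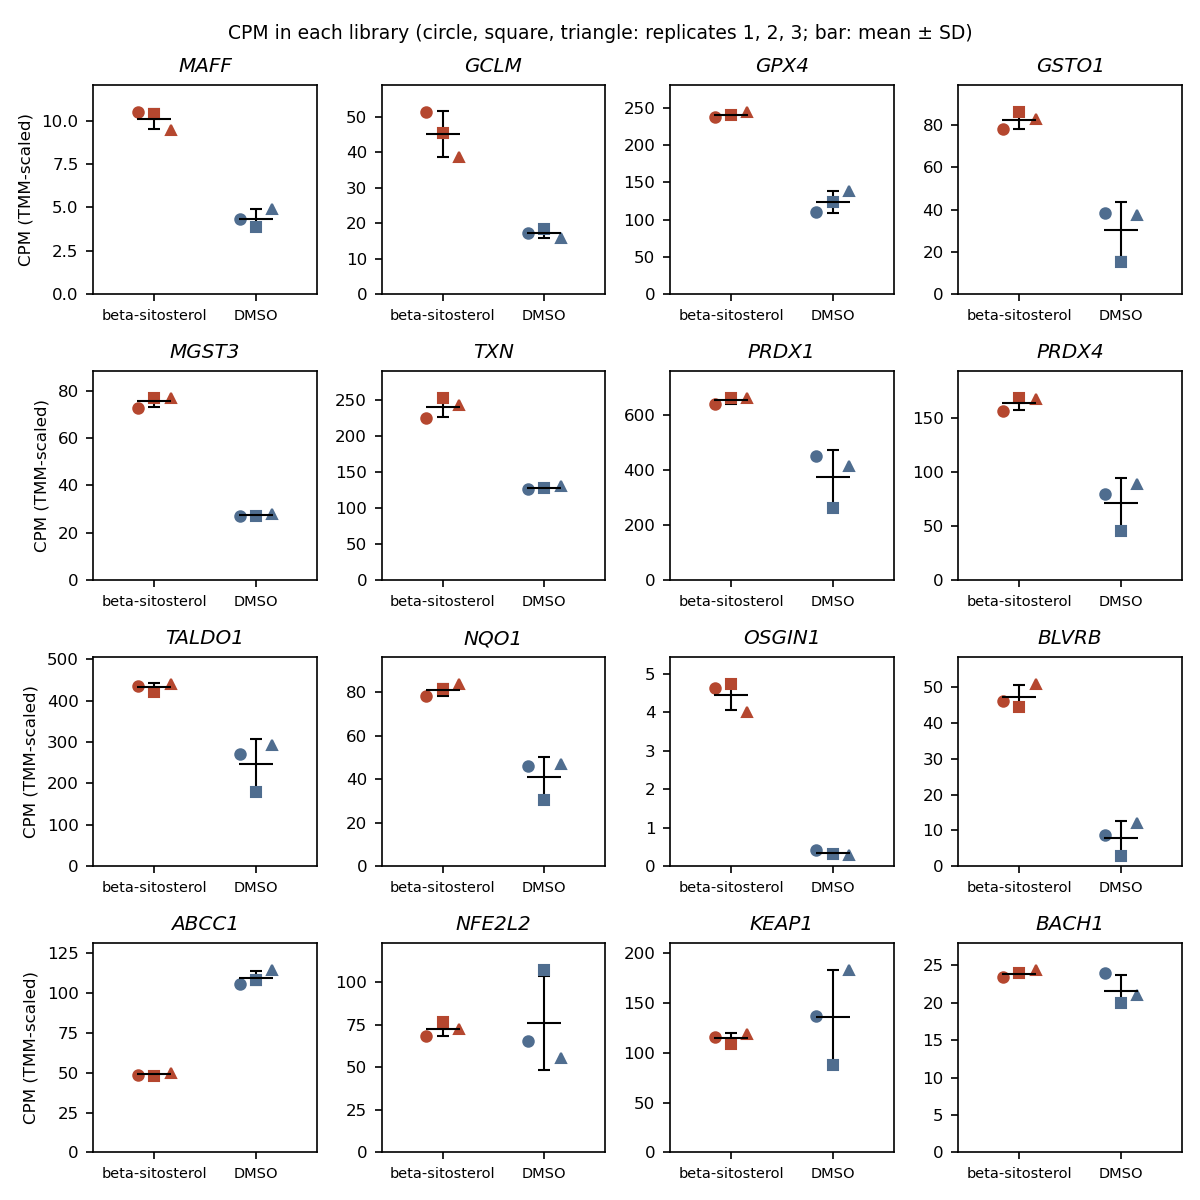
CPM of 16 members in each library, beta-sitosterol left and DMSO right, with the mean and SD of 3 libraries; each panel has its own axis from 0. The treated libraries lie close together in most panels. DMSO replicate 2 (square) is the lowest of its group in MAFF, GSTO1, PRDX1, PRDX4, TALDO1, NQO1, BLVRB, KEAP1 and BACH1. It is the highest in GCLM and NFE2L2.

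Superoxide dismutases turn superoxide into hydrogen peroxide, which catalase and the peroxidases remove. SOD1, the copper and zinc enzyme of the cytosol, had 309.8, 316 and 342 CPM with beta-sitosterol, against 232, 223 and 235 CPM with DMSO. The groups did not overlap, and the rise was 0.49 ± 0.10 log2 units (edgeR adjusted p = 0.00619). SOD2, the mitochondrial manganese enzyme and a target of NF-kappaB, had 184, 166 and 150.3 CPM with beta-sitosterol, against 126, 80.2 and 81.6 CPM with DMSO. It rose by 0.80 ± 0.19 log2 units (edgeR adjusted p = 0.0114), a call lost without treated replicate 1. The annotated SOD2 shares exonic bases with WTAP, and the strand used in counting is not given in the sources used here, so its reads are less certain. CAT, catalase, averaged 55.8 ± 1.56 CPM with beta-sitosterol and 59.3 ± 6.58 CPM with DMSO (SD, n = 3 each) and was not called (edgeR adjusted p = 0.597). None of the 3 genes was called on log2(TPM + 1).

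Of the members grouped under NADPH supply, 1 of 4 tested was higher and 0 were lower. Their summed level overlapped at 1770, 1745 and 1841 CPM with beta-sitosterol and 1648, 1771 and 1926 CPM with DMSO. The higher gene, TALDO1, encodes transaldolase of the non-oxidative pentose phosphate branch, which does not itself form NADPH. TALDO1 had 435, 422 and 439.9 CPM with beta-sitosterol, against 270.2, 179.8 and 292 CPM with DMSO. It was 1.75-fold higher, or 0.80 ± 0.18 log2 units (edgeR adjusted p = 0.00733). PGD, the enzyme of the oxidative branch that yields NADPH from phosphogluconate, had 233, 239.6 and 255 CPM with beta-sitosterol, against 269, 306 and 284 CPM with DMSO. Every treated value was below every DMSO value, but the difference of -0.24 ± 0.11 log2 units did not pass (edgeR adjusted p = 0.107). TKT, transketolase, averaged 1070.1 ± 34.6 CPM with beta-sitosterol and 1205 ± 126 CPM with DMSO, and IDH1, the cytosolic isocitrate dehydrogenase, averaged 39.9 ± 2.11 CPM with beta-sitosterol and 43.1 ± 3.59 CPM with DMSO (SD, n = 3 each). Neither was called (edgeR adjusted p = 0.278 for TKT and 0.49 for IDH1). PGD and TKT were called lower on rescaled TPM, with and without DMSO replicate 2, alternatives added after the data were seen. Over all genes, 4053 and 4774 were called lower under those alternatives, in the order with and without that library. PGD was also called lower with the length trend removed and DMSO replicate 2 left out.

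Detoxification genes held the largest folds, with 6 of 8 tested higher, 1 lower and a median log2 fold change of 1.03. OSGIN1 (ENSG00000140961, chromosome 16, 83948282 to 83966332, plus strand), a stress-induced growth inhibitor regulated by NRF2, had 4.61, 4.73 and 3.998 CPM with beta-sitosterol, against 0.411, 0.314 and 0.289 CPM with DMSO. These rest on 136, 125 and 110 reads with beta-sitosterol and 14, 10 and 10 reads with DMSO. The level was 13.0-fold higher, at 3.70 ± 0.25 log2 units (edgeR adjusted p = 8.07e-05). BLVRB (ENSG00000090013, chromosome 19, 40447765 to 40465840, minus strand), a flavin and biliverdin reductase of haem breakdown, had 46.3, 44.4 and 50.9 CPM with beta-sitosterol, against 8.86, 3.01 and 12.1 CPM with DMSO. Although the DMSO libraries differed widely, the groups lay 5.90-fold apart, or 2.56 ± 0.41 log2 units (edgeR adjusted p = 0.0018). BLVRA, the main biliverdin reductase, had 2.65, 2.38 and 2.73 CPM with beta-sitosterol, against 1.23, 0.721 and 1.67 CPM with DMSO. It rose by 1.09 ± 0.30 log2 units (edgeR adjusted p = 0.021), a call lost without any treated library and without DMSO replicate 1.

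NQO1 (ENSG00000181019, chromosome 16, 69706996 to 69726951, minus strand), the quinone reductase often used as a readout of NRF2, had 78.2, 81.7 and 83.7 CPM with beta-sitosterol, against 45.9, 30.7 and 46.9 CPM with DMSO. It was 1.97-fold higher, or 0.98 ± 0.17 log2 units (edgeR adjusted p = 0.00269), though it was not called on log2(TPM + 1) at 0.71 (limma adjusted p = 0.141). Its paralogue NQO2 had 9.64, 12.2 and 10.8 CPM with beta-sitosterol, against 4.61, 4.64 and 4.24 CPM with DMSO. The groups were well apart at 1.27 ± 0.16 log2 units (edgeR adjusted p = 0.000629). EPHX1, microsomal epoxide hydrolase, had 5.02, 5.14 and 4.87 CPM with beta-sitosterol, against 2.11, 3.54 and 2.57 CPM with DMSO. It rose by 0.87 ± 0.22 log2 units (edgeR adjusted p = 0.0141), a call lost without treated replicate 1 or treated replicate 2.

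ABCC1 (ENSG00000103222, chromosome 16, 15949577 to 16143074, plus strand), the pump that exports glutathione conjugates and several cancer drugs, went the other way from its group. It had 48.8, 48.2 and 50.1 CPM with beta-sitosterol, against 105, 108 and 114 CPM with DMSO. Both groups were tight, and the level fell to 0.448 of that with DMSO, -1.16 ± 0.11 on the log2 scale (edgeR adjusted p = 0.000217). AIFM2, a coenzyme Q reductase that protects membranes from ferroptosis, averaged 4.64 ± 0.734 CPM with beta-sitosterol and 5.01 ± 1.62 CPM with DMSO (SD, n = 3 each) and was not called (edgeR adjusted p = 0.754). GPX4, which also limits lipid peroxidation, was called higher as given above, and the difference between the 2 genes was not tested. On log2(TPM + 1), OSGIN1, BLVRB, NQO2, EPHX1 and ABCC1 were the detoxification members called.

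The remaining 5 members had too few counts to test. GSTP1 had 0, 0 and 4 reads with beta-sitosterol and 0 in every DMSO library, CBR1 had 0, 0 and 2 reads with beta-sitosterol and 0 with DMSO, and GSTM3 was listed at 0 in all 6. ME1 had 0, 4 and 0 reads with beta-sitosterol and 4 in each DMSO library, and MGST2 had 4, 4 and 6 reads with beta-sitosterol and 10, 1 and 2 with DMSO. No statement is made on whether these genes are expressed.

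A wider list of 96 genes of the same systems, drawn from textbook pathways and holding no member, gives the setting. It too was chosen with earlier results of these data known. Of 74 tested, 26 were higher, 11 lower and 37 not called (edgeR, adjusted over all genes tested), or 35.1% higher and 14.9% lower, against the 19% and 21.8% of all genes tested, and the median log2 fold change was 0.19. On log2(TPM + 1), 9 were higher and 8 lower. Among further genes of glutathione, 12 of 20 tested rose and 1 fell, and among those of the thioredoxin fold and methionine sulfoxide repair 5 of 15 rose and 3 fell. Of further NADPH genes 1 of 13 rose and 3 fell, of detoxification and iron genes 5 of 15 rose and 1 fell, and of regulators 3 of 10 rose and 3 fell.

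By smallest p in each of these lists, SQSTM1, the autophagy receptor that sequesters KEAP1, averaged 164 ± 4.03 CPM with beta-sitosterol and 54.8 ± 10.2 CPM with DMSO (SD, n = 3 each), a rise of 1.58 log2 units (edgeR adjusted p = 0.000241). BACH2, a B-cell repressor that binds related sites, had 110.0, 112 and 118 CPM with beta-sitosterol, against 342, 409 and 326 CPM with DMSO, and fell by 1.66 log2 units (edgeR adjusted p = 0.00011). HMOX1, haem oxygenase 1 and a gene that BACH1 represses, had 1.36, 1.48 and 1.85 CPM with beta-sitosterol, against 0.293, 0.125 and 0.289 CPM with DMSO. It rose by 2.69 log2 units (edgeR adjusted p = 0.000847) from a low level, 4 to 10 reads per DMSO library. FTL, ferritin light chain, averaged 973 ± 24.8 CPM with beta-sitosterol and 398 ± 32.6 CPM with DMSO, a rise of 1.29 log2 units (edgeR adjusted p = 0.000167), with many pseudogenes that could share its reads.

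GGT1, which cleaves extracellular glutathione, averaged 10.8 ± 0.627 CPM with beta-sitosterol and 2.82 ± 0.520 CPM with DMSO (edgeR adjusted p = 0.000237), and GLRX3, an iron-sulphur glutaredoxin, averaged 166 ± 7.38 CPM with beta-sitosterol and 81.8 ± 8.06 CPM with DMSO (edgeR adjusted p = 0.000504). TXNIP, which binds and inhibits thioredoxin, had 251, 261 and 245 CPM with beta-sitosterol, against 105, 89.5 and 103 CPM with DMSO, a rise of 1.34 log2 units (edgeR adjusted p = 0.000165). The inhibitor of thioredoxin and thioredoxin itself were thus both higher. MSRB2, a mitochondrial methionine sulfoxide reductase, averaged 11.3 ± 0.836 CPM with beta-sitosterol and 3.08 ± 1.08 CPM with DMSO (edgeR adjusted p = 0.000847). Both named genes of NADPH supply were lower. NNT, the mitochondrial transhydrogenase, averaged 68.9 ± 1.98 CPM with beta-sitosterol and 100.0 ± 2.32 CPM with DMSO (edgeR adjusted p = 0.00459), and NADK, which makes NADP from NAD, averaged 160.5 ± 3.85 CPM with beta-sitosterol and 261 ± 49.4 CPM with DMSO (edgeR adjusted p = 0.00632). CCS, the copper chaperone of SOD1, averaged 20.6 ± 0.871 CPM with beta-sitosterol and 16.2 ± 4.36 CPM with DMSO and was not called (edgeR adjusted p = 0.195).

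Gene length moved with the fold change, and its part in the results was tested only by removing a length trend. Length was read as the ratio of counts to TPM, which is relative only. Across all 11525 genes tested the Spearman correlation of log2 fold change with length was -0.23, and across the 43 members it was -0.24, genes not being independent replicates. In the shortest quartile of genes 28.6% were higher and 13% lower, and it held 16 members, of which 11 were higher and 0 lower. In the longest quartile 11.1% were higher and 32.6% lower, and it held 8 members, of which 4 were higher and 2 lower. With a length trend removed from each library, 24 members were higher and 3 lower, their median log2 fold change being 0.57, and over all genes 2251 were higher and 2427 lower. The lower members there were MAFK, ABCC1 and GPX7, the call of NFE2L1 being lost.

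**Figure D4:**
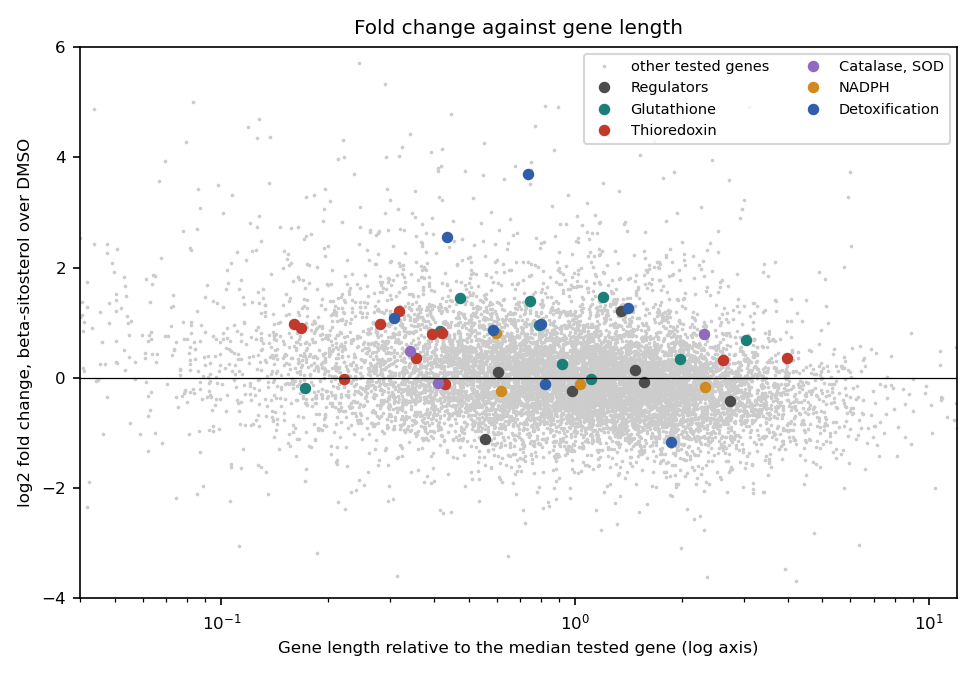
The log2 fold change, beta-sitosterol over DMSO, against gene length relative to the median tested gene on a log axis, with members coloured by role and other tested genes in grey; 225 genes lie outside the axes. Shorter genes lie higher, with a Spearman correlation of -0.23 over all genes. The members lean to shorter genes, the quartiles of length holding, from shortest to longest, 16, 12, 7 and 8 tested members.

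Of the 43 tested members, 17 share exonic bases with another annotated gene on either strand, among them 8 of the 24 higher members and, of the 3 lower ones, NFE2L1 and MAFK, and reads there cannot be assigned with certainty. Pseudogenes carrying a member's name exist for 9 tested members, 7 of them called higher, most for TXN with 7, followed by PRDX2 and PRDX3 with 4 each.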

How the data were processed

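The authors deposited 2 tables with 1 column per library, raw read counts per gene and TPM. StringTie 2.2.1, featureCounts 2.0.1, STAR 2.7.10 and fastp 0.23.2 and the build GRCh38 stand in the submitters' processing notes, with no roles. No source used here gives the annotation, strand use or treatment of multi-mapping reads. The deposited TPM values equal the counts divided by constants per gene and per library, so both tables hold 1 measurement on 2 scales.

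Of 65807 rows, 61 repeats of a symbol were dropped. Counts were tested in R 4.3.3 with edgeR 4.0.16 (TMM, filterByExpr, quasi-likelihood F test, treatment as the only term, two-sided, Benjamini-Hochberg adjustment over all genes tested, threshold 0.05); the SE is the size of the log2 fold change divided by the root of F. Alternatives used DESeq2 1.42.0 and limma 3.58.1. Positions come from GENCODE 29 by Ensembl identifier and promoters from RefSeq on GRCh38.p14.

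The members and lists were chosen with earlier results of these data known. Values per library are given for called members with an absolute log2 fold change of at least 0.5, for NFE2L2, KEAP1 and BACH1, and for the 2 smallest p-values of each role. In the wider list the 2 smallest p-values of each sublist were named. No 2 libraries were alike within sampling noise.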

Additional observations from a re-analysis of the deposited data

How the results depend on the processing

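RLE factors, library totals, no filter on low counts, a filter of 1 CPM in 3 libraries, DESeq2, a replicate block and removal of a length trend left the 5 counts of calls within 1.5 times of those reported. On log2(TPM + 1) with limma, 2939 genes, 7 higher and 1 lower member and 9 higher related genes were called, and on log2(TPM + 0.1) 2935 genes, 7 and 1 members and 9 higher and 6 lower related genes. With each library left out in turn, calls ranged from 3066 to 6579 genes, 17 to 26 higher and 1 to 4 lower members, and 22 to 31 higher and 7 to 14 lower related genes, in each case without refiltering. The alternatives chosen after seeing the data gave 8 lower members and 17 lower related genes on rescaled TPM, 13 and 23 on rescaled TPM without DMSO replicate 2, and 7 lower members with the length trend removed and that library left out, where over all genes 4053, 4774 and 3299 were lower, against 2512 as reported; the cause was not tested. NFE2L2, at -0.07 as reported, ranged from -0.21 to 0.26 with 1 library left out, the positive value being that without DMSO replicate 2 (edgeR adjusted p = 0.0459), and was at 0.36 with the length trend also removed (edgeR adjusted p = 0.00827), and MAFG was at -0.37 on rescaled TPM without that library (limma adjusted p = 0.00744).

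The labels do not say whether replicate numbers pair the libraries, and pairing was not tested beyond the replicate block. Deviations of same-numbered libraries correlated at 0.04, 0.10 and 0.15, low values, though every library correlated best with its own number. With the replicate block, 4743 genes, 22 higher and 3 lower members and 27 higher and 11 lower related genes were called; GCLC (edgeR adjusted p = 0.0655) and TXNRD1 (edgeR adjusted p = 0.0536) were the members whose calls the block ended. Depth was 26453101 to 35565163 counts per library, and its effect on the calls was not tested.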
